A study of Mus musculus with 16 samples.

Results

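The 10 genes described here encode the core of odor transduction in olfactory sensory neurons: the G protein subunits Gnal, Gnb1 and Gng13, the exchange factor Ric8b, the adenylyl cyclase Adcy3, the channel subunits Cnga2, Cnga4 and Cngb1, the chloride channel Ano2 and the neuronal marker Omp. They were chosen by name, as the genes that the array annotation gives for the G protein, cyclase and channel steps, a rule that uses no measured value, although results of these data were already known when it was set. All 10 were found among 19505 named genes, each through 1 probe set. The arrays measured RNA from sorted cells of the olfactory mucosa of C57BL/6 mice that carried an S100a5-tauGFP reporter. In this reporter GFP follows S100a5, a gene that active olfactory sensory neurons express more strongly.

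The 16 libraries form 4 groups of 4. In all of them 7 to 12 week old mice of both sexes had been housed singly in clean air chambers for 40 hours at an airflow of 3.1 L/min. Vehicle mice received pulses of filtered air and odor mice pulses of bourgeonal, an aromatic aldehyde, each lasting 10 seconds and given every 20 minutes from hour 26. Each library came from a pool of 3 mice, and the labels' total of 24 mice gives 4 vehicle pools and 4 odor pools, each sorted through both gates, with 1 library titled GFP- and 1 titled GFP+. The libraries are mixtures of whatever cells passed each gate, and a lower value can come from fewer neurons or from less RNA per neuron, which cannot be told apart here. The p-values rest on the spread between these 8 pools. Those of the limma fits below also draw on the spread of all other genes.

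Titles and cell type entries contradict each other on the gate of every sample, and libraries are called here by title. In 8 of 8 pools S100a5 itself was higher on the titled GFP- side, by a log2 ratio of 1.02 ± 0.25 (SD, n = 8 pools), which goes against the titles. A gate ratio is therefore given as titled GFP- minus titled GFP+ on the log2 scale, so that a positive value means higher on the side where S100a5 was higher. Gate ratios were tested with limma in a single fit of the 16 libraries that blocks on the pool, and adjusted p-values cover all 19505 genes with a threshold of 0.05. Libraries of a group correlated with each other at 0.9896 to 0.9944 over named genes. The brightest gene lay between 19.38 and 19.59 in the 16 libraries. A guide to background, the 95th percentile of 321 vomeronasal receptor genes in the same library, lay between 4.29 and 4.97. The library median was 5.94 to 6.00 in libraries titled GFP- and 6.28 to 6.36 in those titled GFP+.

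In the cilia of an olfactory sensory neuron, an odorant receptor activates the G protein Golf, whose alpha subunit is encoded by Gnal. Golf turns on the adenylyl cyclase Adcy3, and the cyclic AMP it makes opens a cation channel built from Cnga2, Cnga4 and Cngb1. Calcium that enters through this channel opens the chloride channel Ano2, which enlarges the response, and phosphodiesterases, calcium exchange and calmodulin then end it.

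The promoters of olfactory transduction genes are known for sites of the Olf/Ebf transcription factors, so the sequence before the start sites is shown for the 3 members whose windows hold the core of that site and for 2 members that differed between the gates. The motif searched was CCCNNGGGA on either strand, which reads TCCCNNGGG on the other, in windows from 250 bases before to 50 bases after each RefSeq start site (GRCm38.p6). Of the members, 8 had a searched window, with 12 windows between them, and Gnal and Omp were not searched. Each line gives the 120 bases just before the start site, 5′ to 3′ on the gene's strand, with the motif in capitals where it occurs.
Cnga2, chrX:71991729-71991848, plus strand: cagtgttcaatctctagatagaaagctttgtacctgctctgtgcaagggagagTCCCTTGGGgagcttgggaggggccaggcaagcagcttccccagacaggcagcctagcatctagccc
Ano2, chr6:125711068-125711187, plus strand: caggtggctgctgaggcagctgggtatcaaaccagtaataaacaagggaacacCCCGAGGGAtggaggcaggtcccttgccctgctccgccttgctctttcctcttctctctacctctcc
Gng13, chr17:25717052-25717171, plus strand: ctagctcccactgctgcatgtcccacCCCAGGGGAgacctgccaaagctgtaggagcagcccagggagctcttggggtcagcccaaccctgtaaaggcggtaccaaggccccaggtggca
Ric8b, chr10:84917493-84917612, plus strand: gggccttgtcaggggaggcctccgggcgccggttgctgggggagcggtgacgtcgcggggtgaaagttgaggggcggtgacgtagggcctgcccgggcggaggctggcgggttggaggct
Adcy3, chr12:4133277-4133396, plus strand: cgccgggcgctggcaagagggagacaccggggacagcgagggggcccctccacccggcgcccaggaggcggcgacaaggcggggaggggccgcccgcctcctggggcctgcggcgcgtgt

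The motif began 67 bases before the start site in Cnga2 and in Ano2, where it sits at the third of 3 annotated starts, and 94 bases before it in Gng13, at the first of 2 starts. Thus 3 of the 12 member windows held it, against 6.56% of all 32851 windows of that length. Of these 3 genes only Ano2 differed between the gates by the test below, while Ric8b and Adcy3 differed and their windows hold no match to these letters. A match is a description of the sequence and not a measured binding site.

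Across all 4 groups, 9 of the 10 genes gave log2 values of 14.70 or more, far above the background guide, and Cngb1 lay at background. Ano2, Adcy3 and Ric8b were higher in libraries titled GFP-, by 1.38-fold, 1.23-fold and 1.23-fold. No member was called lower, and none passed between odor and vehicle after adjustment. The plot of levels by library shows the members between the background guide and the top of each library, and a distance from the top is a position on the measuring range of the array, not a comparison of RNA amounts between genes.

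**Figure D1:**
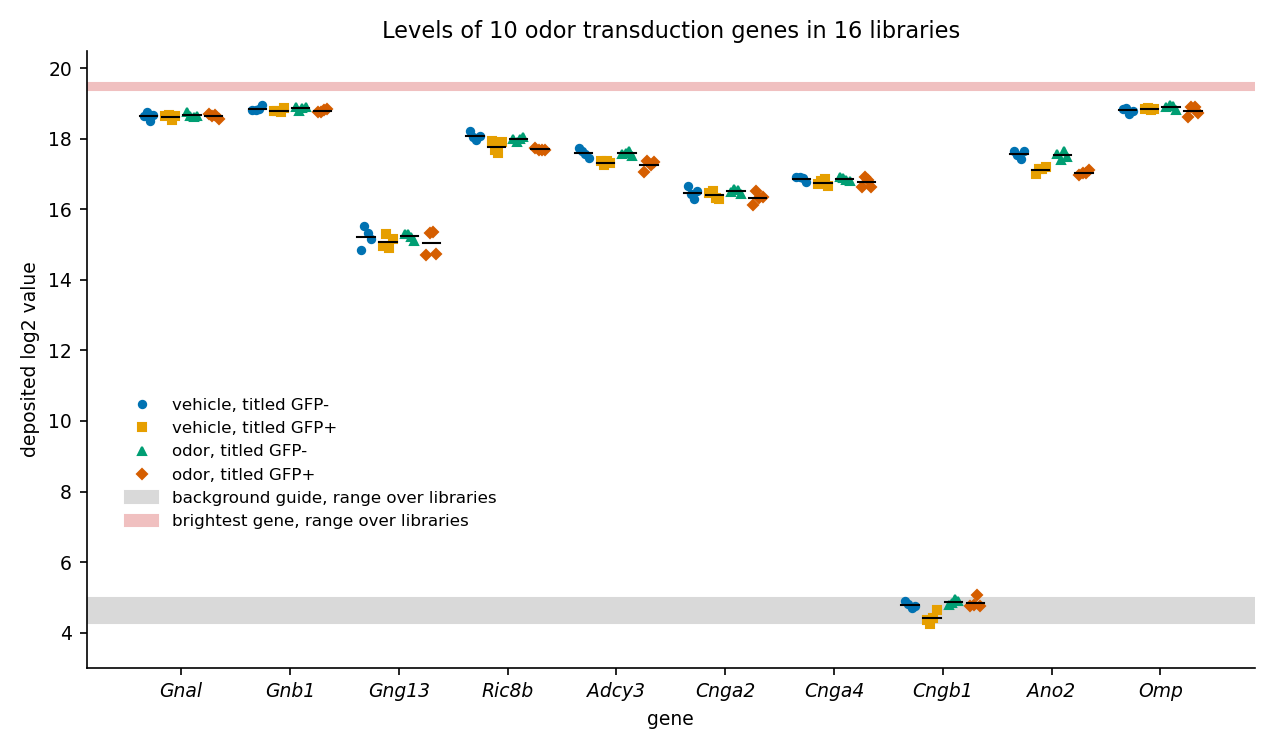
Deposited log2 values (y axis) of the 10 genes (x axis) in the 16 libraries, with a symbol per library and group, a bar at each group mean, and bands for the background guide and for the brightest gene over libraries. Gnal, Gnb1 and Omp sit within 0.53 to 0.95 of the brightest gene, and Cngb1 lies at the background guide.

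Gnal, the alpha subunit of Golf that couples odorant receptors to the cyclase, hardly varied. In vehicle pools 1 to 4 its log2 level was 18.65, 18.76, 18.51 and 18.69 in libraries titled GFP- and 18.65, 18.68, 18.55 and 18.65 in those titled GFP+. In odor pools it was 18.77, 18.64, 18.62 and 18.66 in libraries titled GFP- and 18.71, 18.64, 18.68 and 18.57 in those titled GFP+. All 4 groups overlapped, and the gate ratio was 0.021 (limma SE 0.075, adjusted p = 0.857), higher in 6 of 8 pools. Its gate differences had an SD between single pools of 0.054 (n = 8). The limma SE, which is of a mean and also draws on other genes, exceeded even that SD. The gene lay 0.80 to 0.95 below the brightest gene of its library.

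Gnb1, the beta subunit that pairs with Gnal, spanned 18.75 to 18.95 over the 16 libraries. Its titled GFP- library was the higher one in 8 of 8 pools, by only 0.029 to 0.14 on the log2 scale. Its gate ratio of 0.062 did not pass over all genes (limma SE 0.074, adjusted p = 0.562), although the sign held in every pool (two-sided exact sign-flip test over pools, p = 0.00781, the lowest value that 8 pools can give). The SD of its gate differences between single pools was 0.038 (n = 8), and the limma SE of the mean again exceeded even that. The gene lay 0.53 to 0.79 below the brightest gene.

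Gng13, the gamma subunit of the same complex, was the most variable bright member. It spanned 14.70 to 15.52, and its per-pool gate differences ran from -0.12 to 0.59, higher in 4 pools and lower in 4. The mean gate ratio of 0.17 was smaller than its SD of 0.27 over 8 pools (limma adjusted p = 0.273).

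Ric8b, the exchange factor and chaperone that promotes Golf signalling, differed between the gates in every pool. Its log2 level in vehicle pools 1 to 4 was 18.21, 18.05, 17.98 and 18.09 in libraries titled GFP- and 17.94, 17.67, 17.59 and 17.90 in those titled GFP+. In odor pools it was 17.99, 17.92, 18.00 and 18.07 in libraries titled GFP- and 17.75, 17.69, 17.70 and 17.68 in those titled GFP+. Within each treatment the lowest library titled GFP- stayed above the highest titled GFP+, and how many of all genes did so was not counted. The gate ratio was 0.30 (limma SE 0.076, adjusted p = 0.0152), with per-pool differences of 0.19 to 0.39. Ric8b exceeded the ratio of Gnal, its G protein partner, by 0.28 ± 0.090 (SD) in 8 of 8 pools (two-sided exact sign-flip test over pools, p = 0.00781, adjusted over 6 gene pairs p = 0.0234). The probe set of Ric8b read 1.26 to 1.91 below the highest value of its library, and the part of position on the array scale in the difference from Gnal was not tested.

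Adcy3, the cyclase that makes the cyclic AMP of the response, also differed in every pool. In vehicle pools 1 to 4 its log2 level was 17.74, 17.67, 17.56 and 17.46 in libraries titled GFP- and 17.36, 17.26, 17.37 and 17.32 in those titled GFP+. In odor pools it was 17.57, 17.60, 17.65 and 17.53 in libraries titled GFP- and 17.06, 17.37, 17.26 and 17.34 in those titled GFP+. The gates did not overlap within either treatment, and the share of all genes without such overlap was not counted. The gate ratio was 0.30 (limma SE 0.082, adjusted p = 0.0197), with per-pool differences of 0.14 to 0.51. The call rests on the full set of pools: the limma adjusted p was 0.0542 without vehicle pool 2, 0.0526 without odor pool 1 and 0.0519 without odor pool 3, with ratios of 0.28, 0.27 and 0.29.

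The cyclic nucleotide-gated channel subunits did not pass the test. Cnga2, which forms the pore, spanned 16.14 to 16.67, with a gate ratio of 0.13 (limma SE 0.084, adjusted p = 0.273), higher in 6 of 8 pools and between -0.095 and 0.37. Cnga4, a modulatory subunit, spanned 16.63 to 16.93, with a gate ratio of 0.11 (limma SE 0.079, adjusted p = 0.333), also higher in 6 of 8 pools. Their ratios differed from each other by 0.022 ± 0.13 (SD, n = 8 pools), less than the spread between pools.

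Cngb1, the third subunit, has a probe set at background, so its values give no reliable level. In vehicle pools 1 to 4 its log2 value was 4.91, 4.82, 4.69 and 4.76 in libraries titled GFP- and 4.34, 4.24, 4.41 and 4.64 in those titled GFP+. In odor pools it was 4.79, 4.84, 4.96 and 4.89 in libraries titled GFP- and 4.74, 4.78, 5.07 and 4.74 in those titled GFP+. It exceeded the background guide of its own library in 8 of 16 libraries. Its gate ratio was 0.21 (limma SE 0.086, adjusted p = 0.0963), and the guide itself averaged 4.89 and 4.81 in the vehicle and odor libraries titled GFP- but 4.50 and 4.40 in those titled GFP+. After quantile normalization Cngb1 was called higher in libraries titled GFP-, at 0.43 (limma adjusted p = 0.00308).

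Ano2, the calcium-activated chloride channel that amplifies the receptor current, had the largest gate ratio among the 10 genes. Vehicle pools 1 to 4 had log2 levels of 17.65, 17.55, 17.42 and 17.64 in libraries titled GFP- and 17.01, 17.16, 17.16 and 17.19 in those titled GFP+. In odor pools it was 17.58, 17.41, 17.65 and 17.50 in libraries titled GFP- and 16.97, 17.04, 17.03 and 17.12 in those titled GFP+. Every library titled GFP- lay above every library titled GFP+, across treatments too. How many of all genes did so was not counted. A gene must be higher on the titled GFP- side in all 8 pools to do so, which held for 9.74% of all genes. The gate ratio was 0.46 (limma SE 0.083, 95% interval 0.28 to 0.65, adjusted p = 0.00191), with per-pool differences of 0.26 to 0.64.

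The ratios of Ano2 and Cnga2, the channels that carry the inward current and its chloride boost, were compared within pools. Ano2 exceeded Cnga2 by 0.33 ± 0.091 (SD) in 8 of 8 pools (two-sided exact sign-flip test over pools, p = 0.00781, adjusted over 6 gene pairs p = 0.0234). Their per-pool gate differences correlated at Pearson r = 0.82 (exact permutation test over 8 pools, p = 0.0157, adjusted over 6 gene pairs p = 0.0942) and Spearman rho = 0.62 (exact permutation test, p = 0.115, adjusted p = 0.345). Without the 2 pools farthest from the median of Cnga2, r was 0.89, and with treatment means removed it was 0.81. The correlation did not pass after adjustment, and the gates of a pool share their mice and sort. The same pairing gave no adjusted p under 0.05 for the correlation of Gnal with Gnb1, Gng13 or Ric8b or of Cnga2 with Cnga4 or Cngb1.

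Omp, the olfactory marker protein of mature neurons, did not pass the test. Its log2 level in vehicle pools 1 to 4 was 18.86, 18.89, 18.72 and 18.80 in libraries titled GFP- and 18.85, 18.87, 18.81 and 18.84 in those titled GFP+. In odor pools it was 18.90, 18.97, 18.93 and 18.82 in libraries titled GFP- and 18.63, 18.91, 18.92 and 18.75 in those titled GFP+. The groups overlapped, and the gate ratio was 0.041 (limma SE 0.076, adjusted p = 0.717).

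**Figure D2:**
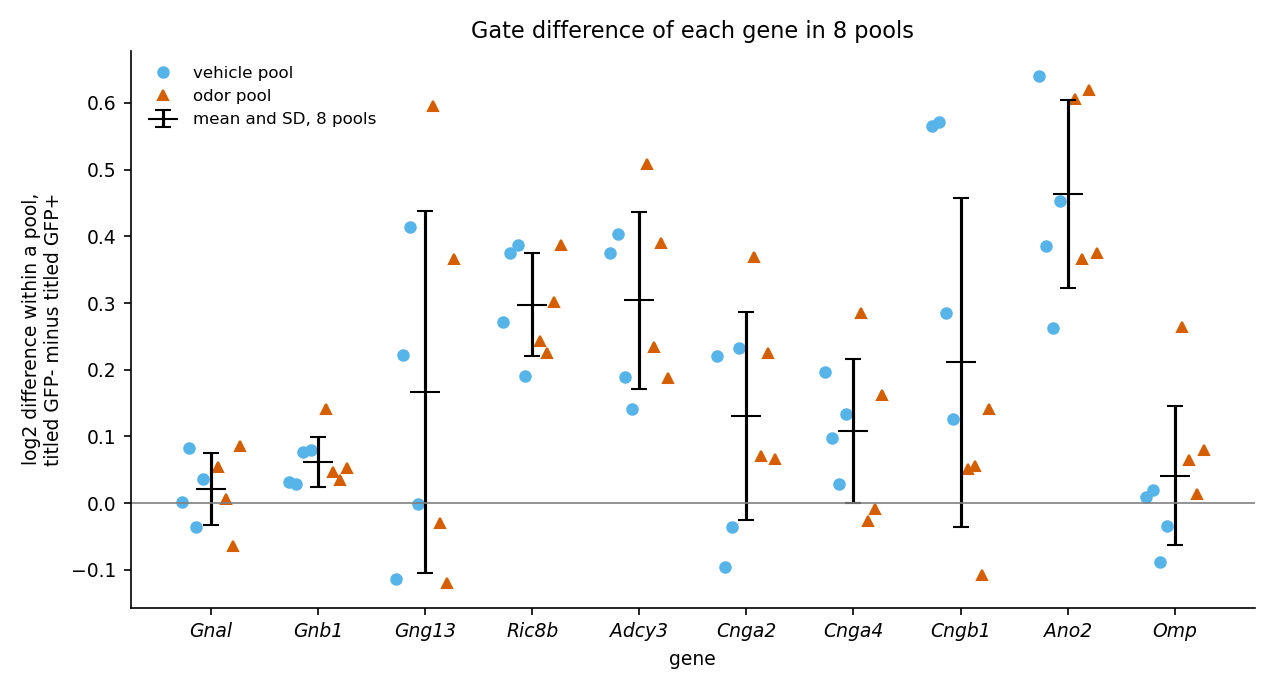
The log2 difference within each pool, titled GFP- minus titled GFP+ (y axis), for the 10 genes (x axis), with circles for vehicle pools, triangles for odor pools, and a bar and whiskers for the mean and SD over 8 pools. All pools lie above 0 for Gnb1, Ric8b, Adcy3 and Ano2, while Gng13 has 4 pools on each side.

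In all, 3 of 10 members were called higher in libraries titled GFP- and 0 lower, where 14.4% of all genes were called higher and 13.2% lower (limma). At an unadjusted p under 0.05 there were 4 of 10 members, the fourth being Cngb1, beside 7785 of all 19505 genes (limma). That count is therefore no excess over all genes. Gnb1, Ric8b, Adcy3 and Ano2 were each higher on the titled GFP- side in all 8 pools, 4 of 10, against 9.74% of all genes that were higher on that side in every pool. The median gate ratio of the members was 0.15, beside 0.10 for all genes. These directions depend on how libraries are scaled. Centring each library on its median moved the median ratio of all genes from 0.10 to 0.46. All 10 members were then called higher, Gnal at 0.37 and Omp at 0.39 among them. So were most genes: 16128 of 19505 were called under centring, 88.89% of them higher. Every count called higher under centring, here and below, stands beside that share. Relative to the median of all genes the members keep their order and spacing under that centring, since every gene shifts by the same amount.

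The same ratios can be read against genes of similar brightness, since differences shrank toward the top of the scale. Among 16 genes with a mean level of 18 to 20, which include Gnal, Gnb1 and Omp, the median size of the gate ratio was 0.044 and 0 were called, also at an unadjusted p under 0.05 (limma). Among 146 genes at 16 to 18, which include Ric8b, Adcy3, Cnga2, Cnga4 and Ano2, it was 0.10, with 10.3% called higher and 2.74% lower. Among 2590 genes at 6 to 8 it was 0.30, the largest of all bands. Below that level it was smaller again, 0.29 at 4 to 6 and 0.19 at 0 to 4. The spread between libraries of a group shrank likewise, from a median SD of 0.32 at 6 to 8 to 0.12 at 16 to 18 and 0.080 at 18 to 20. The limma SE of Gnal, Gnb1 and Omp was 0.075, 0.074 and 0.076. The 90th percentile of ratio size among the 16 genes at 18 to 20 was 0.063, below these SEs. These sizes are the observed ones, so they do not show whether a larger difference at this level would have been called. Ric8b, at a mean level of 17.89, was called at 0.30 with a limma SE of 0.076. The count of 0 describes small ratios in 16 genes and says little by itself. Whether probes near the top were saturated was not tested, as the deposited values carry no saturation calls.

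Within the band of 16 to 18, 3 of 146 genes had a larger gate ratio than Ano2, 6 than Adcy3 and 8 than Ric8b, but 37 than Cnga2 and 47 than Cnga4. The 3 above Ano2, named after their values were seen, were the odorant receptor Olfr1264 at 1.91, Ubl3 at 0.56 and the brain creatine kinase Ckb at 0.49. In the band of 18 to 20, 1 of 16 genes had a larger ratio than Gnb1, 3 than Omp and 5 than Gnal.

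**Figure D3:**
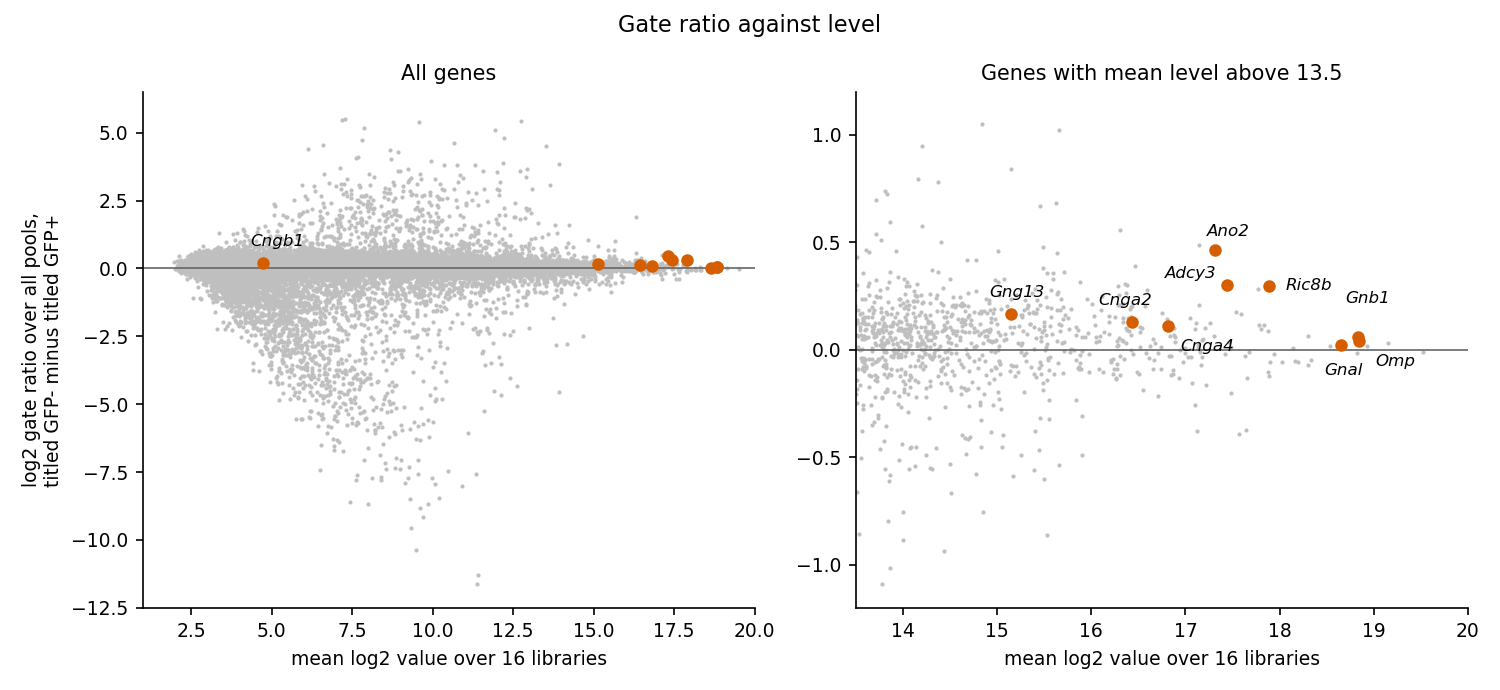
The log2 gate ratio over all pools (y axis) against the mean log2 value over 16 libraries (x axis), for all 19505 genes on the left and for bright genes on the right, with the 10 members in orange. Ratios narrow toward the top of the scale, where Gnal, Gnb1 and Omp lie near 0, while Ano2, Adcy3 and Ric8b stand at the upper edge of their brightness range.

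Split by treatment, Ano2 alone among the members passed in each set of pools. Its gate ratio was 0.44 in vehicle pools (limma SE 0.12, adjusted p = 0.0291) and 0.49 in odor pools (limma SE 0.12, adjusted p = 0.0150). Thus 1 of 10 members was called higher in vehicle pools and 1 in odor pools, beside 6.23% and 7.82% of all genes, and 0 were called lower, beside 9.95% and 10.2%. At an unadjusted p under 0.05, 4 of 10 members passed in vehicle pools and 3 in odor pools (limma). Of all 19505 genes, 5578 and 6013 did so. With 4 pools a side the Ano2 call was lost when single pools were left out: in vehicle pools the limma adjusted p was 0.117 without pool 1, 0.0776 without pool 2 and 0.0909 without pool 4, and in odor pools 0.0629 without pool 1 and 0.0732 without pool 3. Omp had a ratio of -0.023 in vehicle pools, which turned to 0.33 under median centring.

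No member passed the test of whether odor changed its gate ratio. The difference of the ratios, odor minus vehicle, was called for 0 of 10 members and for 0% of all genes (limma), with 0 members and 1109 genes at an unadjusted p under 0.05. For Ano2 it was 0.055 (limma 95% interval -0.31 to 0.43, adjusted p = 0.977), for Adcy3 0.053 (-0.31 to 0.42) and for Ric8b -0.017 (-0.36 to 0.32), intervals wide enough to hold changes as large as the gate ratios of Adcy3 and Ric8b. The lowest exact permutation p was 0.0571, for Cngb1 at -0.35 and for Omp at 0.13 (70 assignments of pools, two-sided, smallest possible p 0.0286).

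Within a gate, odor and vehicle libraries were compared directly. In libraries titled GFP- the members' log2 ratios of odor over vehicle ran from -0.089 for Ric8b to 0.090 for Omp, and 0 of 10 members and 0% of all genes were called (limma), with 0 members and 869 genes at an unadjusted p under 0.05. In libraries titled GFP+ the ratios of the 9 members other than Cngb1 ran from -0.089 for Ano2 to 0.021 for Gnal. Again 0 of 10 members were called, beside 0.0103% of all genes, which is 2 genes, or 1 gene with the replicate number as a block. Cngb1 was the exception before adjustment, at 0.43 (limma 95% interval 0.095 to 0.76, unadjusted p = 0.0163, adjusted p = 0.999). All 4 odor libraries of that gate lay above all 4 vehicle libraries, which no other member showed and which 2.35% of all genes did in either direction. Every one of those values was within 0.79 of the background guide.

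The 13 measured genes that end or adapt the response moved in both directions between the gates. Of these, 5 were called higher and 3 lower, with a median ratio of -0.012. Among all genes 14.4% were called higher and 13.2% lower. The counts of the lists below stand beside these same shares where no centring is named. Pde1c, the ciliary phosphodiesterase that breaks down cyclic AMP, averaged 15.75 ± 0.035 and 15.82 ± 0.14 (SD, n = 4) in vehicle and odor libraries titled GFP- and 15.11 ± 0.074 and 15.12 ± 0.20 in those titled GFP+. Its gate ratio of 0.67 (limma SE 0.082, adjusted p = 0.000124) was larger than that of any cascade member. Slc24a4, the potassium-dependent sodium/calcium exchanger that clears calcium, had a ratio of 0.51 (limma adjusted p = 0.00244), and Pde4a, a second phosphodiesterase, 0.45 (limma adjusted p = 0.00319), both higher in 8 of 8 pools. Camk2a, a calcium/calmodulin kinase subunit, was higher at 0.37 (limma adjusted p = 0.0262), and Camk4, near background, at 0.61.

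In the other direction Camk2b had a ratio of -1.63 (limma adjusted p = 9.8e-06). Rgs2, a regulator of G protein signalling, averaged 7.57 and 7.71 in vehicle and odor libraries titled GFP+ and was below the background guide in those titled GFP-. Grk3, the kinase reported to desensitise odorant receptors, averaged above the guide in the groups titled GFP+, at 4.74 and 4.77, and below it in those titled GFP-. Calm2 and Calm3, which encode calmodulin, did not pass, with ratios of -0.057 and -0.10. Stoml3, a stomatin-like protein of cilia, had a ratio of -0.012 at the top of the scale, with values of 19.38 to 19.59. Under median centring 9 of the 13 genes were called higher and 3 lower, with Calm2 and Calm3 turning to 0.30 and 0.25 and Stoml3 to 0.34.

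Chloride handling genes, which set the gradient that Ano2 uses, showed no call in 8 measured members, with 1 at an unadjusted p under 0.05 (limma). Of all 19505 genes, 7785 passed at that unadjusted threshold. Slc12a2, the cotransporter that loads chloride into the neuron, had a ratio of -0.13 (limma adjusted p = 0.221), lower in 7 of 8 pools, which turned to 0.22 under median centring, where 7 of the 8 genes were called higher. Of the 4 genes that bring receptors to the surface, Reep1 alone was called, at 0.29 (limma adjusted p = 0.0462). With the bright genes' medians equalised it was not called (adjusted p = 0.0661), and under median centring all 4 were. Rtp1 and Rtp2, receptor transport proteins, had ratios of 0.035 and 0.15.

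The paralogs of the cascade genes, many of them active in other cells, were in part lower in libraries titled GFP- and in part at background. Of 15 other G alpha genes, 7 were called lower in libraries titled GFP- and 0 higher. Of 11 other G gamma genes 6 were lower and 0 higher. Among all genes 13.2% were called lower and 14.4% higher. These directions depend in part on the scaling: under median centring 4 G alpha genes were called lower and 7 higher, and 5 G gamma genes lower and 3 higher. Gnas, the widely expressed stimulatory alpha subunit, averaged 6.28 ± 0.46 and 6.18 ± 0.49 (SD, n = 4) in vehicle and odor libraries titled GFP- and 10.46 ± 0.16 and 10.30 ± 0.44 in those titled GFP+, a ratio of -4.15 (limma adjusted p = 7e-08). Gnai2, an inhibitory alpha subunit common in blood cells, had a ratio of -5.91 (limma adjusted p = 7.48e-09), with means of 6.36 and 6.34 against 12.03 and 12.49. Gng8, the gamma subunit of immature olfactory neurons, had a ratio of -4.73 (limma adjusted p = 1.89e-09), with means of 5.80 and 5.62 against 10.52 and 10.36. Gnao1, the G alpha paralog farthest above background, did not pass, at 0.078 (limma adjusted p = 0.523). It was 0.43 and called under median centring.

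The other called G alpha genes were Gnat3 at -2.66 and Gnai3 at -0.74, both also lower under centring, and Gnaq at -0.33, Gna13 at -0.34 and Gna15 at -0.32. Under centring these last 3 moved to 0.027, 0.0092 and 0.035 and were not called, and Gna15 lay below the background guide in all 4 groups. The other called G gamma genes were Gng2 at -3.48, Gng12 at -1.40, Gng5 at -0.89, Gng3 at -0.87 and Gng4 at -0.40. Gng5 was the G gamma paralog farthest above background. Gng4 was not called under centring (-0.045) or after quantile normalization (-0.031).

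Other cyclases and channel subunits were mostly at background. Of 9 cyclase paralogs, 7 were below the guide in all 4 groups and none above it in all 4. Adcy7 was called lower at -0.86 (limma adjusted p = 0.00566), with a mean above the guide in both groups titled GFP+, and Adcy9 was called higher from values below it. Adcy6, the cyclase paralog farthest above background, had a ratio of -0.15 (limma adjusted p = 0.519). All 3 channel paralogs, Cnga1, Cnga3 and Cngb3, were below the guide in all groups. Of 9 anoctamins, Ano10 and Ano6 were called lower at -0.42 and -0.56 (limma adjusted p = 0.0110 and 0.00232), Ano7 was lower at -1.04, and Ano4, near background, was called higher at 0.39. Under median centring Ano10 and Ano6 were at -0.071 and -0.21 and were not called, Ano7 was still lower at -0.69, and 5 anoctamins were called higher. None of 4 beta paralogs passed, with 1 at an unadjusted p under 0.05, beside 7785 of all 19505 genes (limma). Gnb5 had a ratio of 0.34 (limma adjusted p = 0.0501). Under centring 3 of the 4 were called higher, as were 5 of the 9 cyclase and all 3 channel paralogs. Ric8a, the paralog of Ric8b, had a ratio of -0.25 (limma adjusted p = 0.0850), which turned to 0.10 under centring.

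**Figure D4:**
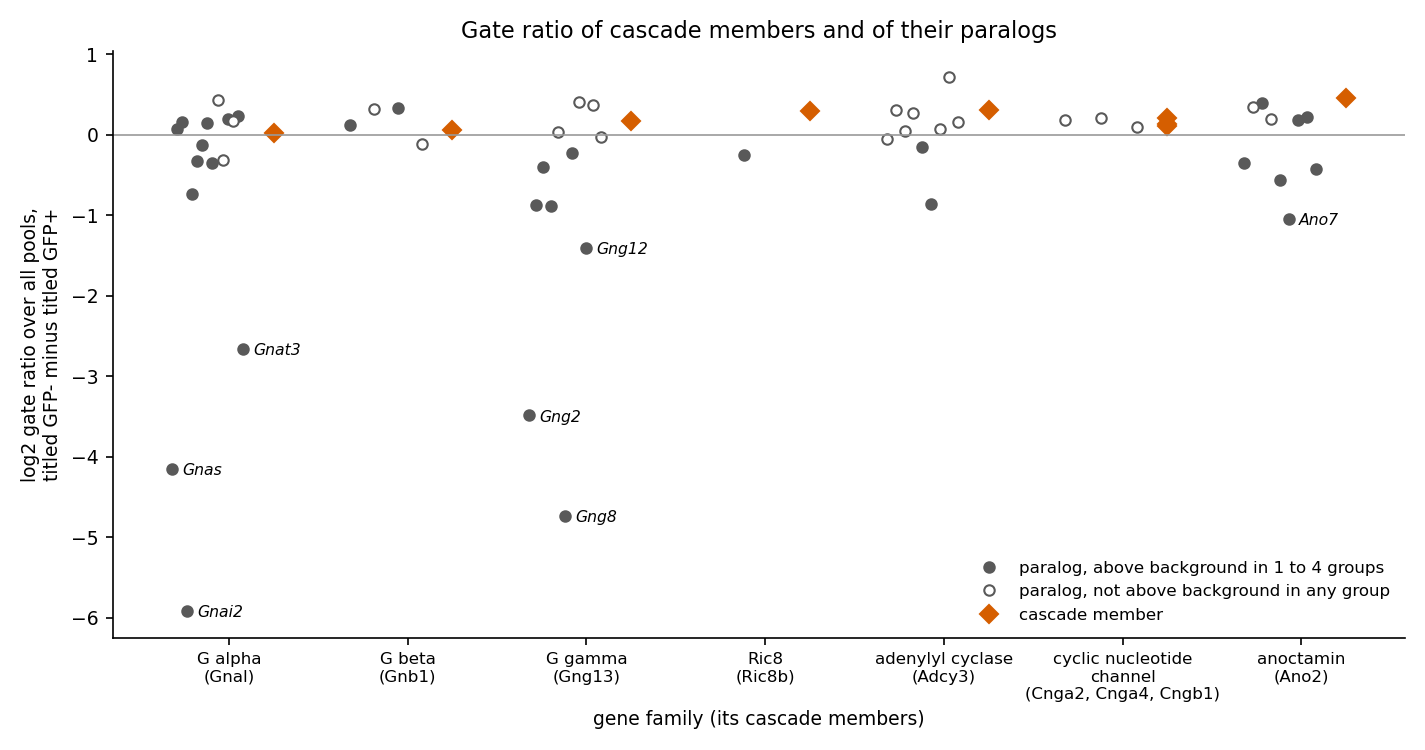
The log2 gate ratio over all pools (y axis) of the cascade members (orange diamonds) and of their paralogs (circles, open where no group mean was above the background guide), by gene family (x axis). All members lie between 0.021 and 0.46, while Gnas, Gnai2, Gnat3, Gng2 and Gng8 lie at -2.66 or lower.

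Markers of other cells moved with the gate, in the direction of the libraries titled GFP+. All 13 measured immune markers were called lower in libraries titled GFP-, and their mean log2 level was 4.17 to 5.10 in those libraries and 10.28 to 11.73 in those titled GFP+. All 10 microvillar cell markers were lower, with list means of 4.90 to 5.33 and 7.94 to 8.70, and so were 9 of 10 sustentacular markers, with 7.18 to 8.48 and 9.33 to 10.11. Of the immature neuron markers 9 of 12 were lower, with 10.03 to 10.29 and 11.72 to 12.09, and 7 of 8 progenitor markers. Markers of basal cells, glands, glia, stroma and vessels fell in 3 of 11, and those of guanylyl cyclase D neurons in 2 of 6. Among all genes 13.2% were called lower.

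Of 9 mature neuron markers, which include Omp and share Pde1c and Slc24a4 with the termination list, 2 were higher and 0 lower, with list means of 16.79 to 16.92 and 16.52 to 16.71. Genes chosen as linked to neuronal activity changed in both directions, 4 higher and 2 lower of 6. That list includes S100a5, used above to check the gate, and it sets no direction for each gene. Under median centring the immune and microvillar counts were again 13 and 10 lower, with 8 sustentacular, 7 immature neuron and 6 progenitor markers lower. There 9 of 9 mature neuron markers were called higher, as were most of all genes, with 16128 calls and 88.89% of them higher. The part of these markers in the gate ratios of Ano2, Adcy3 and Ric8b and of the paralogs was not tested.

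Over the 16 libraries, the genes whose levels followed each called member most closely were sought among 9971 genes above background in all groups, leaving out odorant receptors and unnamed models. Ano2 was followed by Pcdh8, Apba1 and Syngr1, at Pearson r of 0.93 each. Adcy3 was followed by Sorl1, Ggact and Slc25a15, at 0.95, 0.94 and 0.92, and Ric8b by Tmem159, Nxph3 and Fbxl17, at 0.94, 0.93 and 0.92. All 9 of these genes were themselves higher in libraries titled GFP- (limma), with gate ratios of 0.60 for Slc25a15 to 1.29 for Pcdh8, so the correlations hold the gate difference. For the members without a call the closest genes correlated less. Both gates enter each correlation, so this contrast follows in part from the calls and adds nothing to them. Gnal correlated with Fam205a2 at 0.82, Gnb1 with Tomm70a at 0.86 and Gng13 with Cox7a2 at 0.83. Cnga2 did so with Wars at 0.87, Cnga4 with Ppp2r2c at 0.89, Cngb1 with Pus1 at 0.79 and Omp with Enkur at 0.84.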

How the data were processed

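Clariom S arrays measured 16 libraries of sorted olfactory mucosa cells. The submitters' processing notes name Affymetrix Expression Console as the tool with which the authors made the deposited log2 values. Its version, the build and how probes were summarised were not given in the sources used here. With arrays there is no depth to give, and the precision depends on how many there are. Of 28846 probe sets, 19572 named 1 gene, and the probe set with the highest mean was kept per gene, which left 19505 genes.

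Two-sided tests used lmFit and eBayes of limma 3.58.1 (R 4.3.3), and p-values were adjusted by Benjamini-Hochberg over the 19505 genes. Odor was compared with vehicle within a gate on 8 libraries without a block. Exact sign-flip and permutation tests over pools used SciPy 1.17.1. The scripts were tested on simulated data. Background is the 95th percentile of the vomeronasal receptor genes. Alternatives were normalization, the block, a filter on dim genes, another eBayes setting and each pool left out.

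The members and lists were chosen with earlier results of these data known. All members and S100a5 are named. The rule allowed naming listed pathway and paralog genes past the threshold with a group mean above background, the paralog farthest above background per family, and the 3 genes most correlated with a member. Marker lists are given as counts, so their called genes are not all named. Gna15, Adcy9, and genes named as not passing other than members and farthest paralogs, fall outside that rule and were named after their values were seen.

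The gates of a pool were paired, since the number of mice implies that both hold the same animals; their deviations correlated at 0.098 to 0.287. Odor and vehicle libraries of one number correlated at 0.157 to 0.210 when titled GFP+ and at 0.088 to 0.161 when titled GFP-, and the labels do not say what a number stands for. Listed genes without a probe set named for them were not analysed here.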

Additional observations from a re-analysis of the deposited data

Results flagged for a closer look

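In 60 groups of 4 values, 1 value stood far from the other 3 in 2 cases, and chance alone gives about 1 in 20 such groups. The gate difference of Gnb1 was 0.1412 in odor pool 1, while the other odor pools had 0.0345 to 0.0527. The value of Cngb1 in the odor libraries titled GFP+ was 5.0697 in pool 3, while the other libraries of that group had 4.7399 to 4.7844, all near background.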

How the results depend on the processing

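Over all pools, 3 members were called higher as reported, 2 to 3 with a pool left out and 10 with each library centred on its median, when 16128 genes were called in place of 5378 and 88.89% of calls were higher in place of 52.25%. Quantile normalization gave 62.92%. In vehicle pools, 1 member was called as reported, 0 to 1 with a pool left out, 10 under centring (with 12023 genes in place of 3156), 2 after quantile normalization, 3 with dim genes left out and 3 with trend and robust eBayes. In odor pools, 1 was called as reported, 0 to 1 with a pool left out, 10 under centring (with 12174 genes in place of 3521), 3 with dim genes left out and 3 with trend and robust eBayes. In libraries titled GFP+, odor changed 2 genes, none a member, 1 after quantile normalization, 0 with dim genes left out and 0 to 2 with a pool left out; in those titled GFP-, 0, and 1 with trend and robust eBayes. Omp in vehicle pools reversed from -0.023 to 0.3323 under centring. Centring shifts every gene by the gap between library medians; the cause of the other changes was not tested.

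Without the pool as a block, 3 members were called over all pools and 4724 genes. With the replicate number as a block, 1 gene was called in libraries titled GFP+, and 0 members. Equalising the median of the bright genes, chosen after seeing the data, left 3 members called over all pools. Signal near background limits Cngb1 and most cyclase and channel paralogs. Gnal, Gnb1 and Omp lay near the top of the scale, and whether saturation limits their differences was not tested.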
